A study of Mus musculus with 4 samples.

Results

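Classical monocytes (cMonos) infiltrating CT2a gliomas were gated on raw counts of unique molecular identifiers (UMIs) per barcode. The members were therefore chosen by measured values: a barcode was taken as a cMono when it held at least 500 detected genes, under 10% mitochondrial (mt-) UMIs, at least 3 UMIs of Chil3 and Vcan together, fewer than 30 of C1qa, C1qb and C1qc together, fewer than 2 of Ace, Ear2 and Treml4 together, and none of Cd3e, Cd79a or Ncr1. Of the 12866 barcodes that met the limits on genes and mt- UMIs, 1576 were cMonos, 641 in WT and 935 in CaMKK2 KO mice. A single hashtag could be assigned to 610 and 899 of these, and the 31 WT and 36 CaMKK2 KO cMonos with the hashtags of more than 1 mouse were left out.

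The cells came from a single-cell RNA-sequencing experiment on live CD45+ leukocytes, sorted from tumor-bearing hemispheres on day 14 after implantation of CT2a, a mouse glioma line. The groups were 4 CaMKK2 WT and 4 CaMKK2 KO mice, both on the C57Bl/6 background, with no treatment beyond the tumor, and the study's methods give female mice matched for age, as young adults. The KO is a germline deletion carried by all cells of the mouse, and the tumor cells are the same in both groups. A different hashtag antibody (4 in all) marked each mouse within its genotype, and 1 channel of the 10X platform was used per genotype, so that genotype and channel cannot be told apart. The 2 libraries held 6689 and 7271 barcodes, of which 42 had the same sequence in both.

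Classical monocytes are made in the bone marrow, circulate as Ly6C-high cells and enter inflamed tissue and tumors through the chemokine receptor CCR2. In the tumor they can become macrophages or antigen-presenting cells, and on that path they gain complement C1q and other macrophage transcripts. Presentation to CD4 T cells uses MHC class II molecules, whose genes are switched on together by the transactivator encoded by Ciita. CaMKK2, encoded by Camkk2, is a calcium- and calmodulin-dependent kinase that phosphorylates AMPK and other kinases.

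The gate was checked against 4 monocyte genes that it does not use, namely Ly6c2 (the Ly6C surface antigen), Plac8, Hp (haptoglobin) and Thbs1 (thrombospondin-1). At least 2 of them were detected in 96.9% of the WT and 98.7% of the CaMKK2 KO cMonos, against 38.8% and 37.0% of lymphocytes, gated on at least 2 UMIs of Cd3e and Cd79a and none of Chil3 or Vcan (T cells in the following are those with Cd3e alone). The lymphocyte share includes T cells, which use Ly6c2 themselves, and it can include free RNA, whose part was not tested. The comparison is with cells that the gate leaves out by its rule, and it does not set cMonos apart from other myeloid cells. Near the limits, 18 WT and 59 KO cells had exactly 3 UMIs of Chil3 and Vcan, and 26 and 79 otherwise matching cells had 2. There were 15 and 16 cells with 25 to 29 C1q UMIs and 10 and 6 with 30 to 34, while 111 and 132 held 1 UMI of Ace, Ear2 and Treml4 and 39 and 37 held 2. Within the gate, the median cell had 72 UMIs of Chil3 and Vcan in WT and 24 in CaMKK2 KO mice. No C1q UMI was seen in 20%, 18.9%, 24.5% and 14.6% of the cells of WT mice 1 to 4 and in 37.7%, 41.3%, 42.4% and 43.6% of those of KO mice 1 to 4. These values belong to the rule and were not tested.

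Single mice contributed 45, 169, 273 and 123 cMonos in WT and 207, 305, 144 and 243 in CaMKK2 KO. Their share of the barcodes past the quality limits with 1 hashtag was 4.05%, 11.6%, 18.6% and 7.99% in WT and 14.7%, 17%, 8.54% and 19.6% in KO mice. The means were 10.6% ± 6.18 and 15.0% ± 4.73 (SD, n = 4 mice each), and the ranges overlapped (difference 4.39 percentage points, two-sided exact permutation p = 0.286, smallest possible 0.0286). Depth came to 11714 ± 499 and 11388 ± 890 UMIs and 2868 ± 56.2 and 2879 ± 124 genes per cell, means of 4 mice ± SD (exact permutation p = 0.543 and 0.886, adjusted over 3 measures 0.814 and 0.886). The mt- share was 2.5% ± 0.0875 in WT and 2.10% ± 0.311 in KO mice (exact permutation p = 0.0857, adjusted 0.257). Without KO mouse 1 the mt- difference had an exact permutation p of 0.0286, and without WT mouse 3 or KO mouse 1 the difference in genes per cell changed sign.

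The UMIs of all cMonos of a mouse were summed, 542183 in WT mouse 1 to 3589802 in KO mouse 2, and levels are given as UMIs per 1000000 of that sum (CPM). WT mouse 1 stood apart from the other WT mice, with 45 cells and the lowest summed level of type I interferon response genes, 3080 CPM against 15949 to 21423 CPM. Neutrophil markers were summed to 5148, 10367, 131 and 143 CPM in WT mice 1 to 4 and to 118, 140, 257 and 5080 CPM in KO mice. S100a8 was the most abundant of them, and the 15 cells with at least 10 S100a9 UMIs came from WT mice 1 and 2 (5 and 7 cells) and KO mice 3 and 4 (1 and 2 cells). Of the T-cell, B-cell and NK-cell markers, Cd3e, Cd79a and Ncr1 were at 0 by the gate, and the summed levels were low. Summed NK-cell markers came to 25.8, 19.4, 32.8 and 21.8 CPM in WT and 100.1, 67.4, 81.4 and 85.9 CPM in KO mice, with Gzma the most abundant, and summed T-cell markers to 16.6, 18.9, 17.4 and 18.2 against 27.5, 30.1, 32.4 and 32.3 CPM, with Trbc2 the most abundant. Both were higher in every KO mouse than in any WT mouse, while summed B-cell markers overlapped, at 9.22 to 37.0 and 22.9 to 38.0 CPM. The part of RNA from other cells in the results was not tested.

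Between the genotypes, 79 of the 6561 genes with at least 200 UMIs differed at an adjusted p below 0.05 in edgeR's quasi-likelihood test (Benjamini-Hochberg over all genes tested). That is 1.2% of the genes tested, with 42 (0.64%) higher and 37 (0.564%) lower in CaMKK2 KO cMonos, and 59 differed at least 2-fold. In all 79 the values of the 4 mice of one genotype lay entirely above those of the other, which also held for 4.28% (KO above) and 4.92% (KO below) of all genes tested. An unadjusted p below 0.05 was found for 971 genes (14.8%), DESeq2 called 236 genes (3.6%) and limma 68 (1.04%), and the counts within gene lists given in the following are to be read against these shares. The genes of the gate were not tested. Led by fold change, the higher genes included Ifi202b, Ifi44l, Ifi44, Gm8797, Gatm and 6 genes of MHC class II presentation, and the lower ones Spint1, Ifi213, Eps8, Apoe, Thbs1 and Fn1. When each mouse was left out in turn, 29 of the 79 kept the call every time, and the number of calls ran from 30 without KO mouse 2 to 103 without WT mouse 1. In summed UMIs a lower level in each cell and fewer cells with the RNA cannot be told apart.

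**Figure D1:**
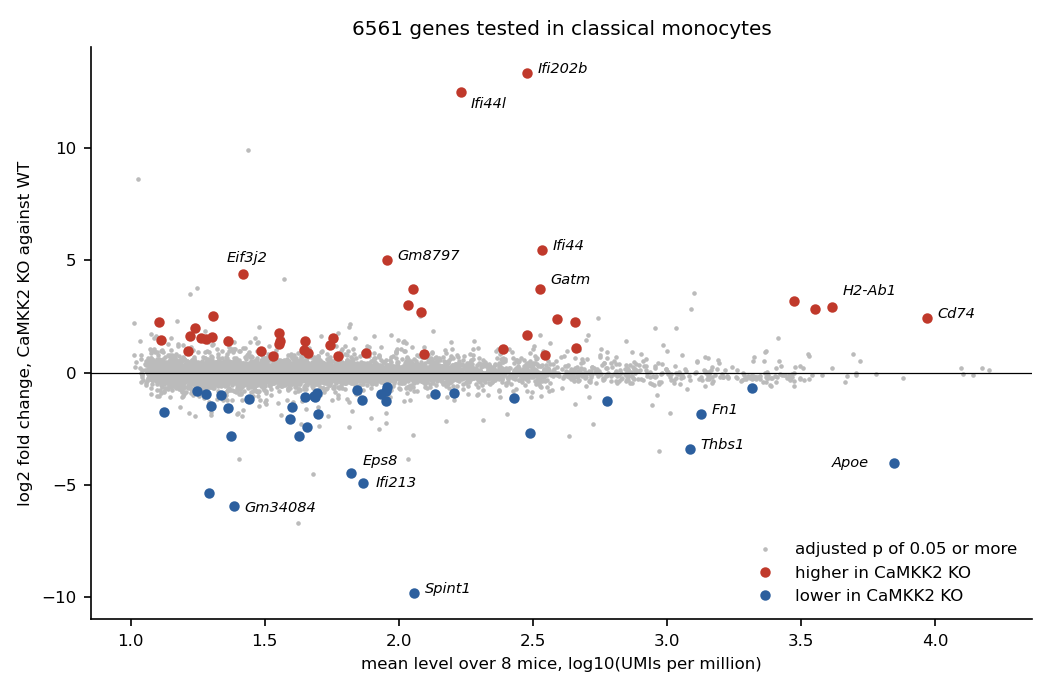
Log2 fold change in cMonos (y axis, CaMKK2 KO against WT) against mean level over the 8 mice (x axis, log10 of CPM) for the 6561 genes tested. Red and blue points are the 42 genes higher and the 37 lower in CaMKK2 KO at an adjusted p under 0.05. Cd74, Apoe and H2-Ab1 are the called genes at the highest levels.

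The plot of all tested genes shows called genes from low levels up to that of Cd74, while Lyz2, which was not called, lay above it. The median log2 fold change of all genes was -0.03, a centre that scaling to the total UMIs sets.

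Camkk2 itself was measured at 53.5, 52.8, 69.8 and 66.8 CPM in WT mice and at 27.2, 27.0, 31.1 and 28.9 CPM in CaMKK2 KO mice. It fell by 1.11 on the log2 scale (SE 0.15, edgeR adjusted p = 0.0059) and kept the call without each mouse. In the cells with no C1q UMI, chosen after seeing the data, the log2 fold change was -1.09 and not called (edgeR adjusted p = 0.11). Reads of this 3' assay can lie outside the deleted part of the gene, which is not given in the sources used here, so the remaining reads do not check the allele. Of the 118 annotated genes that start within 2 Mb of Camkk2 (GRCm38, chr5:122731170-122779409, minus strand), 49 were tested and Camkk2 alone was called. Of the 11 tested genes of the Camkk2, AMPK and calmodulin kinase list, the other 10 were not called. For Prkaa1, a catalytic subunit of AMPK, the log2 fold change was -0.46 (SE 0.17, edgeR adjusted p = 0.24).

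Genes of MHC class II presentation were higher in CaMKK2 KO cMonos. Of the list of 10 genes, 8 were tested, 6 rose and none fell, and the median log2 fold change was 2.58 against -0.03 over all genes. The 6 were Ciita, the chains of the classical class II molecules (H2-Aa, H2-Ab1 and H2-Eb1), the invariant chain Cd74 and H2-DMb1, a subunit of the peptide exchange factor. The other tested members were H2-DMa (log2 fold change 1.43, edgeR adjusted p = 0.069) and the cathepsin Ctss (0.19, adjusted p = 0.63).

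MHC class II genes are known to share a promoter layout that binds the factors through which the Ciita protein acts. It consists of an X box and, downstream of it, a Y box. RefSeq promoter windows, 250 bases before to 50 after the gene start, were at hand for 3 of the called class II genes and are printed to show the layout. They are H2-DMb1 (chr17:34152941-34153240, plus strand), H2-Aa (chr17:34287774-34288073, minus strand) and H2-Eb1 (chr17:34305617-34305916, plus strand), all in build GRCm38.p6. Sequences run 5′ to 3′ on the strand of the gene, and the capitals mark first CTNGNAACT, letters modelled on the X box, and then TGATTGG, the Y box.
H2-DMb1: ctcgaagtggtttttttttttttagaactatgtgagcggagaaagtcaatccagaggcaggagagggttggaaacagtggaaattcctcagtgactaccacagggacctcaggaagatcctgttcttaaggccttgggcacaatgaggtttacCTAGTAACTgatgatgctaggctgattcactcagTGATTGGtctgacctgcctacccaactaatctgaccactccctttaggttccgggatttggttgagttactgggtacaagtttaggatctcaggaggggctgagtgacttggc
H2-Aa: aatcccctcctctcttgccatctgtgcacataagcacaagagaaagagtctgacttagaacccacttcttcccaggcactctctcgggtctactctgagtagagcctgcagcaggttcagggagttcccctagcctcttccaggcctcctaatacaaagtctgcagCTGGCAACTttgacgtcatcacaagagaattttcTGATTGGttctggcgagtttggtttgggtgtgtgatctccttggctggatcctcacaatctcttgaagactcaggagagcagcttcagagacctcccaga
H2-Eb1: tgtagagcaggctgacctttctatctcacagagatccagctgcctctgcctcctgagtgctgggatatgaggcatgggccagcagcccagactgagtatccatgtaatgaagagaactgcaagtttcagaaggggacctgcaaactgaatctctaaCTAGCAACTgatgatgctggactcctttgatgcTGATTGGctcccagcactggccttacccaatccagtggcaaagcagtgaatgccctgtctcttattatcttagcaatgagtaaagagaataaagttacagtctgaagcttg
The letters were chosen after reading the sequences and searched on both strands, and the 2 motifs do not overlap. The first motif began 97, 84 and 94 bases before the start of H2-DMb1, H2-Aa and H2-Eb1, and the Y box 63, 50 and 61 bases before it, a spacing of 34, 34 and 33 bases. Of 32851 windows of this length, 4.10% held the first motif, 7.82% the Y box and 0.35% both. Of the 59 called genes with a window, 10 held the Y box in at least 1 window and these 3 held both. These counts are of genes and the shares above of single windows. As the letters were chosen on these 3 genes, their matches were given in advance. Such matches describe letters and show no binding.

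Ciita was measured at 7.38, 24.7, 56.0 and 29 CPM in WT mice 1 to 4 and at 233, 229, 188.5 and 196 CPM in CaMKK2 KO mice. It rose 6.57-fold (log2 2.72, SE 0.37, edgeR adjusted p = 0.0073) and kept the call without each mouse. Every KO mouse lay above every WT mouse, and WT mouse 1 was the lowest. H2-Ab1, a class II beta chain, stood at 232, 646, 1464 and 1552 CPM in WT and at 7843, 6673, 8954 and 5700 CPM in KO mice (log2 fold change 2.90, SE 0.50, edgeR adjusted p = 0.025). H2-Aa, the alpha chain that pairs with it, was measured at 205, 540, 1293 and 1427 against 6745, 5464, 8177 and 4663 CPM (2.85, SE 0.52, adjusted p = 0.032). All 4 KO mice were more than 3 times the highest WT mouse for both chains. H2-Eb1 rose by 3.18 (SE 0.62, adjusted p = 0.043), Cd74 by 2.43 (SE 0.48, adjusted p = 0.043) and H2-DMb1 by 2.24 (SE 0.36, adjusted p = 0.019) on the log2 scale. Cd74 was the most abundant, at 706, 2042, 4280 and 4616 CPM in WT and 17645, 14777, 17969 and 12617 CPM in KO mice.

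The 5 class II genes other than Ciita lost the call when some mice were left out, with highest adjusted p-values of 0.087 for H2-DMb1, 0.11 for H2-Ab1, 0.13 for H2-Aa and 0.16 for H2-Eb1 and Cd74. Their fold changes stayed positive in every alternative. Without WT mouse 2, KO mouse 1 or KO mouse 2, Ciita alone was called in the list, and without WT mouse 1 it was 7 genes, H2-DMa included. In cells without any C1q UMI, a subset chosen after seeing the data, 7 of the 8 tested class II genes were called and the median of the 8 was 2.66. DESeq2 and limma also called 7. With HTODemux at a quantile of 0.95 Ciita and H2-DMb1 were called, with the gate on UMIs per 10000 Ciita, H2-DMb1 and H2-Ab1, and with the hashtag number as a block Ciita alone.

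**Figure D2:**
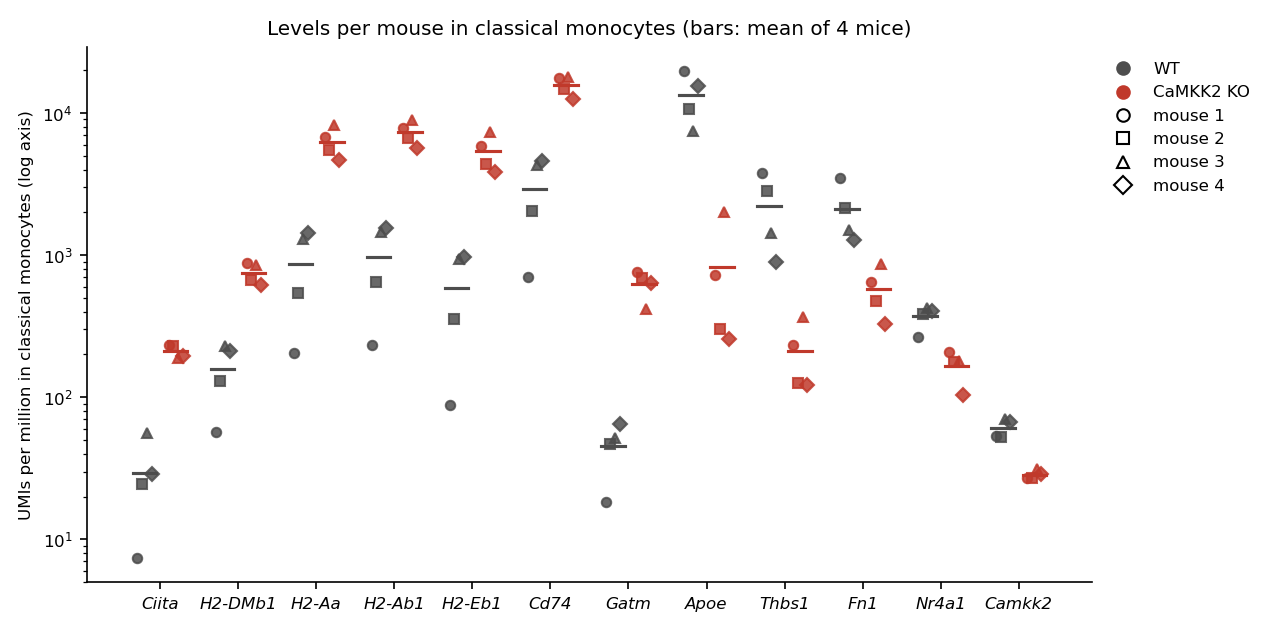
Levels in cMonos (CPM, log axis) of 12 genes in 4 WT (grey) and 4 CaMKK2 KO mice (red), with a symbol for each mouse number and bars at the group means. The groups do not overlap for any gene shown, and WT mouse 1 is the lowest WT mouse for the class II genes and the highest for Apoe, Thbs1 and Fn1.

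Levels by mouse, plotted for 12 genes, show on their log axis a wider spread among WT than among KO mice for the class II genes and Gatm, although in CPM the SD was larger in KO mice (H2-Ab1 641 and 1412 CPM, Gatm 19.5 and 148 CPM). For Apoe the KO mice spread more widely on the log axis, with KO mouse 3 the highest, while in CPM the SD was 5368 in WT and 817 in KO mice.

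Shares of cells were compared after each cell was thinned to 5000 UMIs, which left out 7, 12, 13 and 10 shallower cMonos of WT mice 1 to 4 and 5, 7, 5 and 7 of KO mice. At least 5 UMIs of H2-Aa, H2-Ab1 and H2-Eb1 together were found in 7.89%, 16.6%, 26.9% and 36.3% of WT and in 84.2%, 70.5%, 79.1% and 70.8% of CaMKK2 KO cMonos. T cells gave 0% to 1.31% in WT and 3.09% to 8.82% in KO mice. A single UMI was found in 47.4% to 69.9% of WT and 91.9% to 96.0% of KO cMonos, but also in 44.4% to 53.6% of WT and 70.6% to 88.2% of KO T cells. WT mice 1 and 2 had shares with 1 UMI close to or below that of their T cells, which are read as background. T cells of the KO library held class II UMIs more widely than those of the WT library, in which free RNA and expression cannot be told apart. Without thinning, 76.3% to 83.5% of WT and 97.5% to 99.5% of KO cMonos held a UMI of the 3 genes.

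**Figure D3:**
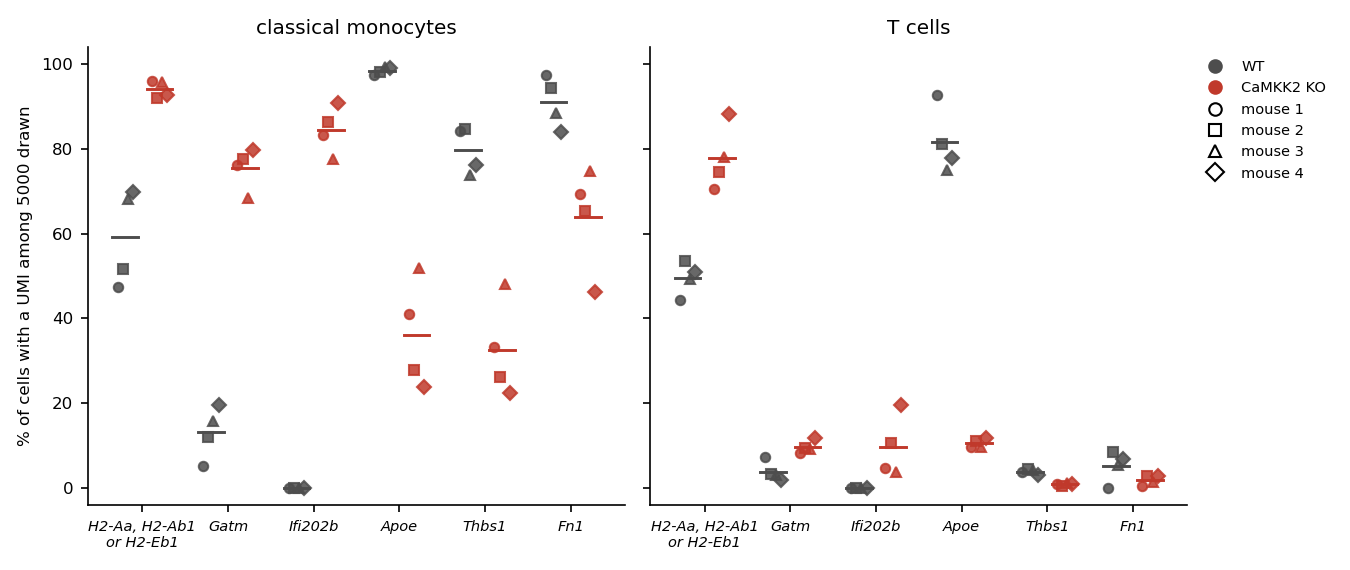
Percentage of cells with at least 1 UMI among 5000 drawn per cell (y axis), in cMonos and in T cells as the level that free RNA can give, for the 4 WT (grey) and 4 CaMKK2 KO mice (red), with bars at the group means. Gatm, Ifi202b, Thbs1 and Fn1 stay below 20% in T cells of every mouse, while class II genes and WT Apoe do not.

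Apoe, Thbs1 and Fn1 were among the abundant genes that fell. Apoe, which carries lipids out of macrophages, was measured at 19634, 10628, 7443 and 15514 CPM in WT mice and at 725, 304, 2007 and 255 CPM in CaMKK2 KO mice (log2 fold change -4.02, SE 0.67, edgeR adjusted p = 0.022). The highest KO mouse, mouse 3, was below the lowest WT mouse, mouse 3. Lymphocytes of WT mice held 451 CPM of Apoe and those of KO mice 94.2 CPM, so the level in the reference cells was lower in the KO library too. In the plotted shares of cells, at least 1 Apoe UMI was found in 97.4% to 99.2% of WT and 23.7% to 51.8% of KO cMonos, beside 75.0% to 92.6% and 9.67% to 11.8% of T cells. At least 5 UMIs were found in 89.6% to 97.4% of WT and 6.36% to 30.2% of KO cMonos, beside at most 4.58% of T cells. The summed level of the 12 macrophage markers, C1q genes of the gate included, was 22098, 13118, 9339 and 17639 CPM in WT and 2634, 1892, 4291 and 2002 CPM in KO mice. Apoe is the most abundant gene of that list, and none of its other tested members was called. In the cells with no C1q UMI, a subset chosen after seeing the data and cut on genes of the gate, the log2 fold change of Apoe was -3.51 (edgeR adjusted p = 0.037). The part of the genotypes' different position within the gate in this result was not tested. The other 14 tested genes of lipid handling and cholesterol efflux were not called. Among them were Abca1, a cholesterol exporter (log2 fold change -1.31, adjusted p = 0.21), and Nr1h3, a sterol-sensing nuclear receptor (0.89, adjusted p = 0.29).

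Thbs1, a secreted matrix glycoprotein, was measured at 3763, 2823, 1433 and 894 CPM in WT mice and at 234, 126, 364 and 121 CPM in CaMKK2 KO mice (log2 fold change -3.40, SE 0.52, edgeR adjusted p = 0.014). Fn1, fibronectin, was measured at 3506, 2156, 1491 and 1280 against 644, 477, 861 and 327 CPM (-1.87, SE 0.37, adjusted p = 0.043). Both were highest in WT mouse 1, and in both the lowest WT mouse was above the highest KO mouse. They were the members called by edgeR in the list of matrix, clotting and wound genes, of which 19 of 23 were tested, 2 fell and none rose, while DESeq2 called 8 lower and limma 3. In that list 17 log2 fold changes were negative, with a median of -0.74 against -0.03 over all genes, and 9 members had an unadjusted p below 0.05, against 14.8% of all genes. Without WT mouse 2 the median was -0.46. Among the members called by DESeq2 but not by edgeR were Ecm1 (-2.29, edgeR adjusted p = 0.057), the urokinase receptor Plaur (-0.82, adjusted p = 0.057) and the clotting factor subunit F13a1 (-1.43, adjusted p = 0.18). The others were Mmp8, Spp1 and Thbd. Without WT mouse 2 or KO mouse 1, 2 or 4, neither Thbs1 nor Apoe was called, with edgeR adjusted p-values up to 0.068 and 0.081. Fn1 kept its call in 3 of the 8 repeats that left out a mouse, and its adjusted p reached 0.17 without KO mouse 2. Fn1 was also not called with the gate on UMIs per 10000 (edgeR adjusted p = 0.058), with limma (0.057) or with at least 2 UMIs of Chil3 and Vcan (edgeR adjusted p = 0.051).

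Of the classical monocyte markers outside the gate, 8 were tested, edgeR called Thbs1 and Fn1, limma Thbs1 alone, and DESeq2 5 genes, Thbs1, Fn1 and F13a1 lower and Ly6c2 and Ccr2 higher. Ly6c2 had values of 371, 1387, 1579 and 1979 CPM in WT and 2386, 3566, 3425 and 6125 CPM in KO mice, without overlap but not past edgeR's test (log2 fold change 1.54, SE 0.45, edgeR adjusted p = 0.16). Ccr2, the receptor that draws monocytes out of the marrow, was measured at 601 to 730 CPM in WT and 805 to 841 CPM in KO mice (0.34, SE 0.11, adjusted p = 0.20). Plac8 (0.84, adjusted p = 0.49) and Hp (-0.17, adjusted p = 0.85) were not called by any of the 3 tools. The sign for Hp turned when cells with neutrophil markers were left out.

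Interferon lists had mainly positive fold changes and few calls. Of 48 tested type I interferon response genes, 42 had a positive log2 fold change (median 0.50), 1 rose and 1 fell, and 8 had an unadjusted p below 0.05, a share near the 14.8% of all genes. The gene that rose was Ifi44, at 1.84, 11.6, 13.2 and 29.8 CPM in WT and 674, 738, 397 and 877 CPM in CaMKK2 KO mice (log2 fold change 5.47, SE 0.50, edgeR adjusted p = 0.00044). The gene that fell was Ifi213, an Ifi200-family gene, at 27.7, 161, 229 and 150 CPM against 4.27, 4.18, 3.31 and 7.22 CPM (-4.91, SE 0.55, adjusted p = 0.0020). Irf7, a factor that amplifies type I interferon, had 168, 733, 760 and 661 CPM in WT and 1129, 1359, 1006 and 1930 CPM in KO mice (1.22, adjusted p = 0.21), and WT mouse 1 was far below the rest. Without WT mouse 3 the median of the list was 0.78 and without KO mouse 4 it was 0.27. Without WT mouse 1 it was 0.19, and 3 members were called, with Ifi205 added on the lower side.

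Of 26 tested interferon-gamma-inducible genes, 25 had a positive log2 fold change (median 1.05) and Ciita alone was called by edgeR and limma, while DESeq2 called Cd274, Ciita, Ly6a and Ly6i and 11 had an unadjusted p below 0.05 (14.8% of all genes did). For Cxcl9, a chemokine for activated T cells, the log2 fold change was 2.83 (edgeR adjusted p = 0.23), and for the GTPase Iigp1 it was 2.53 (adjusted p = 0.16). All 21 tested genes of MHC class I and peptide loading had a positive log2 fold change (median 0.79), with no call in edgeR or limma, 4 calls in DESeq2 (3.6% of all genes) and 15 unadjusted p-values below 0.05. H2-D1 was measured at 1767 to 2919 CPM in WT and 3727 to 4828 CPM in KO mice (0.75, adjusted p = 0.077), and H2-K1 at 955 to 2153 and 2687 to 3251 CPM (0.92, adjusted p = 0.090). Outside that list the non-classical class I gene H2-M3 rose by 0.87 on the log2 scale (SE 0.17, adjusted p = 0.042). That call held in 1 of 8 repeats without a mouse (highest adjusted p = 0.14). It was lost with limma (adjusted p = 0.070) and, in edgeR, without neutrophil-marker cells (0.062) and with under 10 C1q UMIs (0.052). In edgeR it was also lost with at least 6 UMIs of Chil3 and Vcan (0.053), no C1q UMI (0.10) and the hashtag number as a block (0.088). The 4 tested Ly6 genes had a median of 1.77 and none was called by edgeR or limma, 3 by DESeq2 and 4 at an unadjusted p below 0.05. For Ly6i among them the log2 fold change was 2.44 (adjusted p = 0.11). Without WT mouse 1, H2-D1, H2-K1, Ly6a and Ly6i were called.

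**Figure D4:**
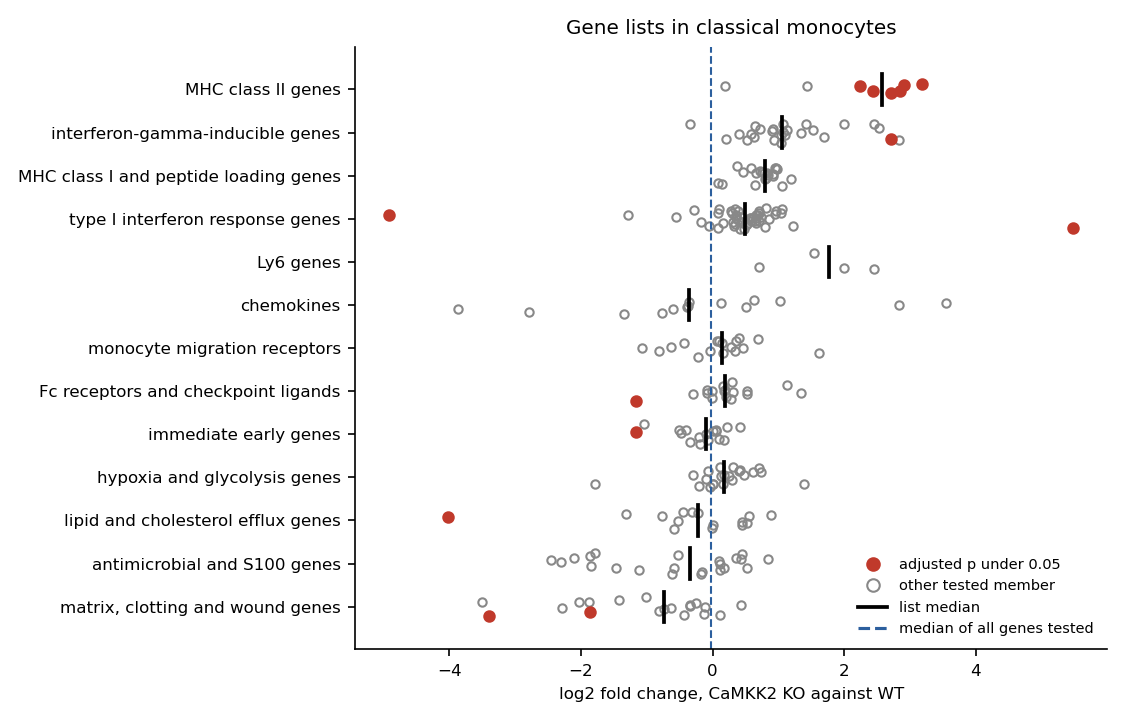
Log2 fold change (x axis, CaMKK2 KO against WT) of each tested member of 13 gene lists in cMonos, with called genes filled, list medians as black bars and the median of all genes tested, -0.03, as a dashed line. Among the 13 lists shown, the class II list has the highest median and the matrix list the lowest.

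The plot of gene lists sets the 6 called class II genes beside lists in which most members shared a sign without a call. In the chemokine list 14 genes were tested, none was called by edgeR or limma, 3 by DESeq2, and 6 had an unadjusted p below 0.05, against 3.6% and 14.8% of all genes for the latter measures. Its members ran from -3.87 for Pf4 to 3.55 for Ccl5, which had 12.9, 243.5, 265 and 265 CPM in WT and 943, 2601, 1928 and 3847 CPM in KO mice (edgeR adjusted p = 0.051). Lymphocytes, which make Ccl5, held 2215 and 2117.5 CPM in the 2 libraries.

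Among receptors and surface molecules, the costimulatory ligand Cd80 fell by 1.16 on the log2 scale (SE 0.22, edgeR adjusted p = 0.042) and Cd93, a C1q-family binding receptor, fell by 1.25 (SE 0.25, adjusted p = 0.043). Itgb5, an integrin beta chain, fell by 0.90 (adjusted p = 0.022) and Alcam, an adhesion molecule, fell by 0.96 (SE 0.13, adjusted p = 0.0080). Slamf6 rose by 1.39 (adjusted p = 0.023), and P2ry14, a receptor for UDP-sugars, rose by 1.78 (SE 0.28, adjusted p = 0.017). Ncf4, a cytosolic subunit of the phagocyte NADPH oxidase, was measured at 315, 309, 267 and 288 CPM in WT and 616, 649, 605 and 627 CPM in CaMKK2 KO mice (log2 fold change 1.08, SE 0.12, adjusted p = 0.0014). Its mice lay close together within each genotype, and the call held without each mouse. None of the 17 tested migration receptors was called by edgeR or limma, with 3 called by DESeq2 (3.6% of all genes) and 8 at an unadjusted p below 0.05 (14.8%). Of 17 tested Fc receptors and checkpoint ligands, edgeR called Cd80, DESeq2 called 2 and limma none. Alcam also kept its call without each mouse, whereas without KO mouse 2 or 4 or WT mouse 2 the calls of Cd80, Cd93, Itgb5, Slamf6 and P2ry14 were lost, with highest adjusted p-values of 0.15, 0.17, 0.085, 0.11 and 0.087. Cd80 was also lost with limma (adjusted p = 0.067), and without neutrophil-marker cells the calls of Cd80, Cd93 and P2ry14 were lost (adjusted p = 0.13, 0.059 and 0.050). With the hashtag number as a block Cd80, Cd93, Itgb5 and Slamf6 were not called (edgeR adjusted p = 0.12, 0.14, 0.088 and 0.053). Cd93 was also lost with the gate on UMIs per 10000 (0.057), under 10 C1q UMIs (0.052) and HTODemux at 0.95 (0.069). With no C1q UMI, Cd93 (0.17) and Itgb5 (0.073) were lost. Cd80 was lost with cells of outlying depth or mt- share left out (0.0501). Slamf6, a receptor that lymphocytes also carry, stood at 49.1 and 64.8 CPM in WT and KO lymphocytes, above its cMono levels of 5.53 to 17.4 and 27.9 to 37.6 CPM, and P2ry14 at 8.30 and 16.4 CPM. The part of lymphocyte RNA in both calls was not tested. Cd93, Itgb5, Alcam, Slamf6, P2ry14 and Ncf4 stood in no list and were chosen after their values were seen.

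Nr4a1, an orphan nuclear receptor that is known for its part in the non-classical monocyte fate, was measured at 266, 388, 423 and 405 CPM in WT and 208, 176, 179 and 103 CPM in CaMKK2 KO mice. It fell by 1.16 on the log2 scale (SE 0.23, edgeR adjusted p = 0.043), and the call held in 1 of the 8 repeats that left out a mouse, with an adjusted p of up to 0.15. The related Nr4a3, chosen after its values were seen, fell by 1.60 (SE 0.22, adjusted p = 0.0080) and kept the call in all 8. Nr4a1 was also not called with the gate on UMIs per 10000 (edgeR adjusted p = 0.058) or with at least 6 UMIs of Chil3 and Vcan (0.070). Of 17 tested immediate early genes and of 16 tested monocyte transcription factors, Nr4a1 was the called member of both lists. The other 3 tested non-classical markers, Cx3cr1, Adgre4 and Pou2f2, were not called.

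Several of the largest differences were near-complete presence or absence in 1 genotype. Ifi202b, an Ifi200-family gene, had no UMI in the WT cMonos and 568, 733, 378 and 732 CPM in CaMKK2 KO mice. Against a floor of 3 UMIs over the 4 WT mice it was at least 1511-fold higher in KO. Ifi44l, the neighbour of Ifi44, had no UMI in WT and 334, 384, 190.5 and 450 CPM in KO mice, at least 851-fold higher. Spint1, a membrane inhibitor of serine proteases, had 168, 279, 248.7 and 215 CPM in WT mice and 2 UMIs in all KO cMonos, against 1736 UMIs in WT (edgeR adjusted p = 4.2e-07). After thinning, an Ifi202b UMI was seen in 77.7% to 90.7% of KO cMonos and 3.72% to 19.6% of KO T cells, and a Spint1 UMI in 31.6% to 57.3% of WT cMonos and 0.654% to 3.70% of WT T cells. Eps8, an actin regulator, fell from 110 to 141 CPM in WT mice to 3.04 to 9.31 CPM in KO mice (log2 fold change -4.48, SE 0.27, adjusted p = 3.5e-05).

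The near-identical genes Eif3j1 and Eif3j2 changed in opposite directions. Eif3j1, an initiation factor subunit, had 73.8, 63.9, 93.3 and 76.2 CPM in WT and 13.2, 14.2, 17.2 and 12.9 CPM in CaMKK2 KO mice (log2 fold change -2.44, SE 0.17, edgeR adjusted p = 6.7e-05). Eif3j2 had 0.726 to 2.90 CPM in WT and 40.3 to 63.2 CPM in KO mice (4.39, SE 0.31, adjusted p = 6.7e-05), and reads of such copies can be split between them in counting. Gm8797 rose from 4.36 to 5.81 CPM in WT mice to 152 to 197 CPM in KO mice (5.03, SE 0.17, adjusted p = 4.2e-07). Gm8797 differed in lymphocytes as well, at 7.89 CPM in WT and 186 CPM in KO.

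Several called genes were neighbours. Another called gene was within 1 Mb of 21 of the 79 (26.6%), while 779 of 6561 tested genes (11.9%) had one, called genes among both. On chromosome 2, Zfyve19 (chr2:119208617-119217049) and Spint1 (chr2:119237362-119249527) lay together and both fell, and Eif3j1, Gatm and AA467197 followed between 122028546 and 122641191, of which Gatm rose and the other 2 fell. On chromosome 1, Ifi213 and Ifi202b were neighbours of opposite sign, and on chromosome 3 Ifi44 and Ifi44l both rose. On chromosome 7 Pop4 and 1600014C10Rik rose, and on chromosome 6 Hebp1 and Emp1 rose. On chromosome 17 the group was the class II genes H2-DMb1, H2-Ab1, H2-Aa and H2-Eb1. The strain of origin of these segments in the KO mice was not tested.

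Gatm, the first enzyme of creatine synthesis, was measured at 18.4, 47.0, 51.5 and 64.6 CPM in WT mice and at 762, 692, 419 and 638 CPM in CaMKK2 KO mice (log2 fold change 3.74, SE 0.33, edgeR adjusted p = 0.00034). The lowest KO mouse was more than 6 times the highest WT mouse, and the call held without each mouse. A Gatm UMI was found after thinning in 5.26% to 19.5% of WT and 68.3% to 79.7% of KO cMonos, beside 1.84% to 7.41% and 8.25% to 11.8% of T cells. Hebp1, a heme-binding protein, had 48.0, 11.1, 6.76 and 14.5 CPM in WT and 189, 178, 260 and 194.5 CPM in KO mice (3.71, SE 0.47, adjusted p = 0.0052). Pop4, a subunit of RNase P, had 18.9 to 31.4 CPM in WT and 136 to 222 CPM in KO mice (3.00, SE 0.21, adjusted p = 6.7e-05).

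The granzyme genes Gzma and Gzmb, known from killer lymphocytes, were called higher in KO cMonos, by 2.53 (SE 0.26, edgeR adjusted p = 0.0011) and 1.62 (SE 0.22, adjusted p = 0.0073) on the log2 scale. Their levels were low, 3.63 to 7.40 CPM of Gzma in WT and 25.6 to 41.1 CPM in KO mice, against 110 and 684 CPM in lymphocytes of the 2 genotypes. These lymphocytes were gated on Cd3e and Cd79a, so NK cells without these UMIs are not in the reference. With the gate on UMIs per 10000, Gzma was not called (log2 fold change 1.55, edgeR adjusted p = 0.18), and in cells with no C1q UMI neither gene had enough UMIs to be tested. The other defining NK markers were too low to be tested, and Ncr1 was at 0 by the gate. The part of free lymphocyte RNA in these 2 calls was not tested. When calls were kept only where the higher genotype had at least 5 times the level of its lymphocytes, 34 of the 79 remained, 20 higher and 14 lower in KO, and neither granzyme was among them. Of the other genes described, Slamf6, P2ry14, Cd80, Alcam, Ncf4, Nr4a1, Nr4a3, H2-M3, Pop4, Ifi213, Gm8797, AA467197, Zfyve19, Eif3j1 and Eif3j2 were not among them either.

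Functional lists with 0 or 1 called member described much of what did not pass the test. Over all genes tested, DESeq2 called 3.6% and 14.8% had an unadjusted p below 0.05. Of 22 tested antimicrobial and S100 genes none was called by edgeR or limma, 2 were called by DESeq2 and 7 had an unadjusted p below 0.05. The log2 fold change was -0.62 for S100a6 (edgeR adjusted p = 0.11), and lysozyme Lyz2, at 11823 to 17934 CPM in WT and 15630 to 17886 CPM in KO mice, one of 0.12 (adjusted p = 0.73). Of 22 tested hypoxia and glycolysis genes none was called by edgeR or limma, 1 was called by DESeq2 and 6 had an unadjusted p below 0.05. The glycolytic enzyme gene Tpi1 had 446 to 524 CPM in WT and 595 to 959 CPM in KO mice (0.70, adjusted p = 0.092). Of 19 tested interleukin-1 and inflammatory genes none was called by edgeR, 1 each by DESeq2 and limma, and 9 had an unadjusted p below 0.05. For Nlrp3, an inflammasome sensor, it was -0.49 on the log2 scale (adjusted p = 0.14).

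None of the 17 tested pattern and C-type lectin receptors was called by edgeR or limma, 1 was called by DESeq2 and 6 had an unadjusted p below 0.05, with Cd14 at -0.72 (edgeR adjusted p = 0.11), against 3.6% and 14.8% of all genes. Of 11 tested heat shock genes none was called by any of the 3 tools and 1 had an unadjusted p below 0.05, and of the 2 tested cell cycle genes none was called or had such a p. The 8 tested macrophage markers included Apoe as the called one, and the other 7 were not called, among them Trem2 (-0.44, adjusted p = 0.68) and Gpnmb (-0.81, adjusted p = 0.70). Of the 9 tested neutrophil markers none was called by edgeR or limma, 1 was called by DESeq2 and 2 had an unadjusted p below 0.05, and their median was -1.47. That median rested on single mice, at 0.33 with 5 of 8 tested markers positive without WT mouse 2 and at -7.07 without KO mouse 4. None of the 4 tested microglia markers was called by any tool, and 1 had an unadjusted p below 0.05. Of the 15 most abundant genes, mt- genes aside, Apoe and Cd74 were the called ones.

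The genotype effect was compared with that in non-classical monocytes by the interaction of genotype and class with mouse as a block. These cells passed the same limits on C1q and lymphocyte genes, held at least 2 UMIs of Ace, Ear2 and Treml4 and needed no Chil3 or Vcan. Gated were 223 WT and 311 KO cells, of which those with 1 hashtag entered the fit. They numbered 20, 66, 80 and 46 in WT mice 1 to 4 and 42, 140, 30 and 75 in KO mice. Of these cells, 120 in WT and 134 in KO held at least 3 UMIs of Chil3 and Vcan. Their count of Ace, Ear2 and Treml4 alone kept them out of the cMono gate, so the 2 classes are not sharply apart. None of the 3995 genes tested was called by edgeR (0.0%), 302 had an unadjusted p below 0.05, and the lowest adjusted p was 0.14. Class II genes had large interaction terms all the same. For H2-Ab1 the term was 2.92 (log2, edgeR adjusted p = 0.14), for H2-Aa 2.93 (adjusted p = 0.18), for H2-Eb1 3.34 (adjusted p = 0.19) and for Ciita 1.85 (adjusted p = 0.25). The level of H2-Ab1 in non-classical monocytes was 9016, 4525, 5513 and 7988 CPM in WT and 6812, 7084, 10171 and 6286 CPM in KO mice, and these ranges overlapped. Without WT mouse 1, Cd74, Gatm, H2-Aa, H2-Ab1 and H2-Eb1 were called, and in cells without a C1q UMI H2-DMb1 joined them. For Nr4a1 the term was -1.01 (adjusted p = 0.19).

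**Figure D5:**
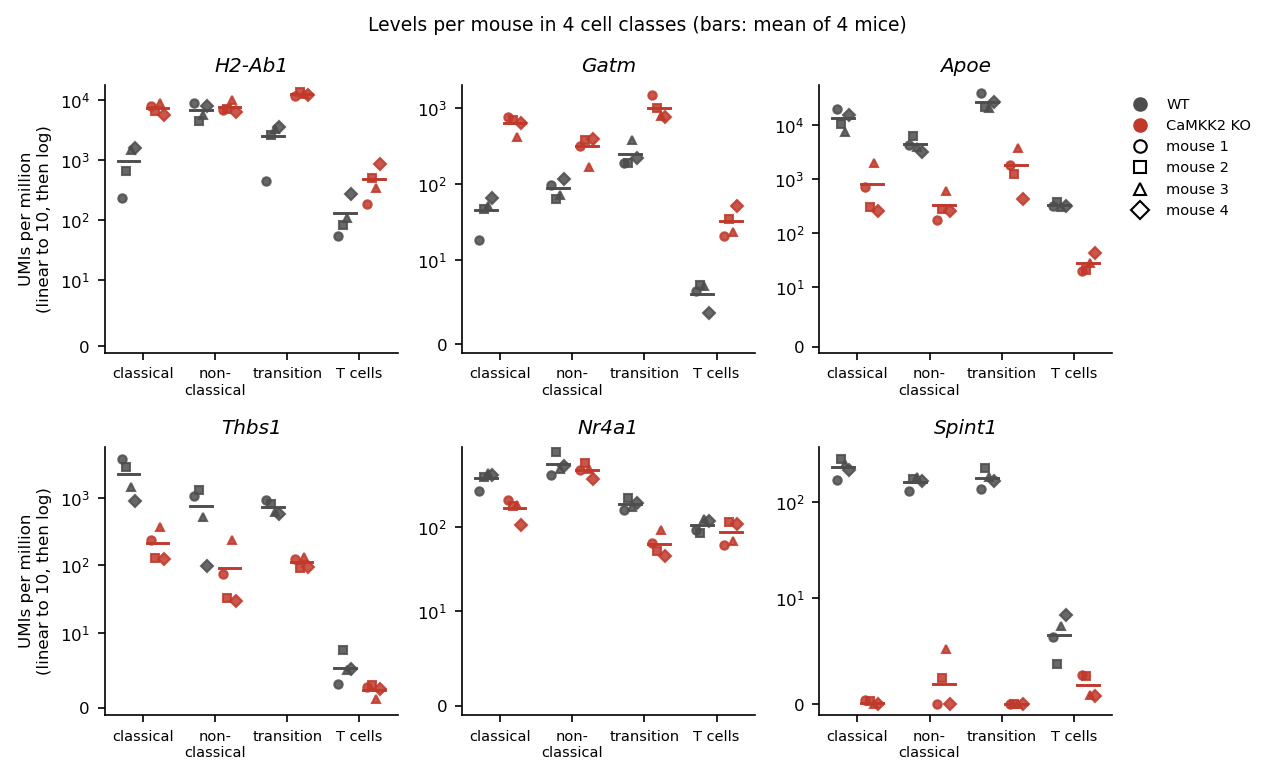
Levels by mouse (CPM, y axis linear up to 10 and logarithmic above) of 6 genes in classical monocytes, non-classical monocytes, Chil3-positive transition cells and T cells of 4 WT (grey) and 4 CaMKK2 KO mice (red), with bars at the group means. H2-Ab1 overlaps between genotypes in non-classical monocytes and not in the other classes plotted except T cells, and Spint1 is near 0 in KO mice in every class.

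The plot of 6 genes by cell class puts cMonos beside the classes closest to them, which come from the same mice and channels. Apoe was at 4430 and 291 CPM in pooled WT and KO non-classical monocytes and Thbs1 at 683 and 61.3 CPM, lower than in cMonos of the same genotype for both genes. Spint1 (170 and 1.79 CPM), Gm8797 (5.15 and 157 CPM), Eps8 (112 and 8.93 CPM) and Ifi213 (99.2 and 0.595 CPM) differed between the pooled genotypes there too.

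Chil3-positive transition cells meet the cMono limits but hold at least 30 C1q UMIs (429 WT and 286 KO cells gated). Those with 1 hashtag entered the fit, 80, 99, 69 and 106 in WT and 60, 69, 73 and 42 in KO mice 1 to 4. Against them, 3 of 5430 genes (0.0552%) had an interaction at an edgeR adjusted p below 0.05, and 385 had an unadjusted p below 0.05. The genotype difference of Gatm was larger in cMonos by 1.72 on the log2 scale (edgeR adjusted p = 0.012), with 191, 188, 378 and 222 CPM in WT and 1465, 992, 773 and 761 CPM in KO transition cells. For Slamf7, a receptor of the SLAM family, the term was 1.06 (adjusted p = 0.012), with cMono levels of 12.9, 33.4, 61.1 and 98.7 CPM in WT and 99.3, 157, 113 and 218 CPM in KO mice. For Bst1, an ectoenzyme of NAD metabolism, it was -1.0 (adjusted p = 0.012), with 86.4 to 173 and 93.9 to 144 CPM in cMonos and 37.3 to 83.8 and 78.7 to 143 CPM in transition cells. The call for all 3 was lost when cells with neutrophil markers were left out and in cells without a C1q UMI. Those fits tested 4101 and 3465 genes against 5430. The count of called genes ran from 0 without WT mouse 3, KO mouse 2 or KO mouse 4 to 7 without WT mouse 1. H2-Ab1 was higher in KO transition cells as well, at 11861, 13766, 12524 and 12245 CPM against 447, 2642, 3248 and 3498 CPM in WT.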

How the data were processed

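Live CD45+ cells were run on the 10X 3' platform with hashtag antibodies. Per the labels the authors made count matrices with Cell Ranger 4.0.0 (STAR 2.7.5c, bcl2fastq 2.20) against mm10, and the deposited values are raw UMI counts per gene or hashtag and barcode. Hashtags were assigned with HTODemux (Seurat 5.3.0, quantile 0.99). Barcodes with hashtags of several mice were taken as doublets and left out, and doublets within 1 mouse were not removed in the main analysis. The cMonos of each mouse were summed, and genes with at least 200 UMIs over the 8 mice were tested with edgeR 4.0.16 (quasi-likelihood test, total UMIs as library size) at an adjusted p of 0.05. CPM is UMIs per 1000000 of the summed cells. DESeq2 1.42.0, limma 3.58.1 (log2 of mean CPM + 10) and TMM scaling were alternatives. Interactions between genotype and class carried mouse as a block. Two-sided exact permutation tests went through every split of the mice into groups of the same sizes, with NumPy 2.4.6. Scripts ran in R 4.3.3 and Python 3.11.15 with scanpy 1.11.5 and pandas 2.3.3. Positions came from GENCODE for GRCm38.

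The members and gene lists were chosen with earlier results of these data known. Named genes were the 15 highest and 15 lowest fold changes among called genes whose mice did not overlap, the 3 lowest adjusted p-values of each list, Camkk2 and its neighbours, the 15 most abundant genes, the 10 lowest adjusted p-values of each interaction, and markers. Outside this rule, chosen after their values were seen, are Alcam, Cd93, Cxcl9, Ecm1, Emp1, H2-DMa, H2-M3, Ctss, Ifi205, Itgb5, Ncf4, Nr4a3, P2ry14, Pf4 and Slamf6. Some genes are not reported here. Mice are the replicates. Tests cover the spread between mice, and intervals of cell sampling were not added. WT mice were purchased and CaMKK2 KO mice came from a colony, and the number of backcrosses is not given in the sources used here.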

Additional observations from a re-analysis of the deposited data

Results flagged for a closer look

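In groups of 4 mice, 13 of 278 had a highest or lowest mouse whose gap to the next was large against the range of the group (Dixon's test at its 95% critical value), where chance gives about 1 in 20. The count is near the one chance gives, and the values in the following are described without a further test. Of the 13, WT mouse 1 accounted for 6. It was the lowest WT mouse for Irf7 (168 CPM), the interferon-inducible Ifi27l2a (487 CPM), the chemokine Ccl5 (12.9 CPM) and Gm34084 (16.6 CPM), and it was the highest for G0s2, a lipase inhibitor gene abundant in neutrophils (315 CPM). Lyz1, a lysozyme gene, stood at 3.69 CPM in that mouse, apart from the other WT mice.

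CaMKK2 KO mouse 3 was apart from the other KO mice for Cd93 (74.7 CPM), Ecm1 (289 CPM), the prostaglandin synthase gene Ptgs2 (84.0 CPM) and the microglial receptor P2ry12 (27.1 CPM). KO mouse 4 was apart for the neutrophil marker S100a8 (1725 CPM), KO mouse 1 for Ccdc71l (27.9 CPM) and KO mouse 2 for Hpgd, a prostaglandin dehydrogenase (2.23 CPM).

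The genotype effect differed between cMonos and Chil3-positive transition cells for 3 genes by the interaction in edgeR. The difference was 1.72 on the log2 scale for Gatm, 1.06 for Slamf7 and -1.0 for Bst1.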

How the results depend on the processing

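The 79 genotype calls of 6561 genes became 236 with DESeq2 and 49 with a replicate block on the hashtag number, over the same genes. With every gene of at least 1 UMI there were 189 calls of 15987 tested. In cells with no C1q UMI (chosen after seeing the data) there were 41 of 3498 tested. These 2 counts are to be read against the number tested. When the higher genotype had to reach 5 times its lymphocyte level, 34 of the 79 remained. Leaving out 1 mouse gave 30 (KO mouse 2) to 103 (WT mouse 1). Of the 49 calls with the block, 40 were among the 79. The hashtag numbers share only a number: their correlations of deviations were 0.068, 0.004, -0.479 and -0.036. Counts under the other settings were within 1.5 times of 79.

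The 0 interactions of 3995 genes against non-classical monocytes became 1 of 3291 without neutrophil-marker cells and 3 of 4045 with mice taken from 80% of hashtag UMIs. There were 4 of 4000 with at least 2 UMIs of Chil3 and Vcan and 6 of 3372 with no C1q UMI. With every gene of at least 1 UMI there were 106 of 16565, and leaving out 1 mouse gave 0 to 5. The 3 of 5430 against transition cells became 6 of 5668 with under 10 C1q UMIs and 118 of 16849 with every gene of at least 1 UMI. They became 0 with at least 6 UMIs of Chil3 and Vcan (4471 genes tested) and with the gate on UMIs per 10000 (4241). There were also 0 without neutrophil-marker cells (4101) and with no C1q UMI (3465), and leaving out 1 mouse gave 0 to 7. The cause was not tested.

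The difference in mean genes per cell ran from -43.4 to 53.6 when 1 mouse was left out, with -3.89 without WT mouse 3, and that in mt- percentage from -0.527 to -0.276. The difference in the share of cMonos kept its sign throughout, from 2.22 to 7.06 points without 1 mouse and 7.86 points with lymphocyte-marker cells left out of the denominator. Of 3589 single-gene values under alternatives, 3016 kept direction and side of the threshold, 449 lost a call, 119 gained one and 5 changed sign. These were Hp (0.40 without neutrophil-marker cells) and Bst1, whose difference in cMonos of -0.07 turned to 0.034 without neutrophil-marker cells and turned positive without WT mouse 2, KO mouse 1 or KO mouse 3, within a range of -0.20 to 0.17 over the mice left out. WT mouse 1 had 45 cells, and the part of this low number in the spread of the WT group was not tested.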
